A study of Mus musculus with 2 samples.

Results

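H1f0 encodes the linker histone H1.0, and the account that follows gives its level in mouse bone marrow cells, by cell class, by library and by cell cycle state. The gene was picked by name from earlier results of the same tables, in which it was higher in the T1D library, so its levels are a description and carry no test. It is 1 of 27842 genes listed in either table, and 1 of 8 linker histone genes found there of 11 looked for. The T1D library came from C57/BL6 mice given streptozotocin, a toxin of the insulin-producing beta cells, with high blood sugar. The control library came from C57/BL6 mice given sodium citrate solution, with normal blood sugar. Cells of both were freed from femurs and tibias by collagenase and dispase, red blood cells were lysed, and libraries were made with the Singleron GEXSCOPE kit. There was 1 library per group, and neither age, sex nor the number of animals per library is stated in the sources used. A difference between the libraries therefore has no replicate check, and every interval below covers counting error only.

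Linker histones bind the DNA that enters and leaves the nucleosome and help to pack chromatin. Most members of the family (in mouse Hist1h1a to Hist1h1e) lie in the large histone gene cluster and are made mainly while DNA is replicated. H1.0 is a replication-independent member: it lies apart from that cluster and is made outside S phase as well. It is known for building up in cells that stop dividing and differentiate, erythroid cells among them. Messages of replication-dependent histone genes typically end in a stem-loop, whereas the H1f0 message ends in a poly(A) tail.

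Sequences of H1f0 and of relatives it is compared with are shown because the relatives carry motifs and message ends typical of replication-dependent genes. The 250 bases before the RefSeq start are given for H1f0 (GRCm38.p6, chr15:79027962-79028211, plus strand) and for Hist1h1e (named H1f4 in RefSeq, GRCm38.p6, chr13:23622559-23622808, minus strand), 5′ to 3′ along the gene. Capitals mark 3 motifs of histone gene promoters, AAACACA (the H1 box), CCAAT and TATAAA, searched on both strands.
H1f0: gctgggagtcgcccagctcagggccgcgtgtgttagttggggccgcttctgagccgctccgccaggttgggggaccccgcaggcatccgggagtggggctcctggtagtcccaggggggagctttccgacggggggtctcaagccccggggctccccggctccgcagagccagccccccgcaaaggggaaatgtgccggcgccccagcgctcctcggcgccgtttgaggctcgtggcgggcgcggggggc
Hist1h1e: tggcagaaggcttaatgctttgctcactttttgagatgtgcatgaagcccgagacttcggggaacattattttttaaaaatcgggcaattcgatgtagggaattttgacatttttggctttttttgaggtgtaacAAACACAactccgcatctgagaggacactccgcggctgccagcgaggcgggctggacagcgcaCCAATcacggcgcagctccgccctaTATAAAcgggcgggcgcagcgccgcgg
The H1f0 window held none of these letters. In Hist1h1e the 3 motifs began 115, 52 and 27 bases before the start. AAACACA lay 112 to 122 bases before the start in Hist1h1b, Hist1h1c, Hist1h1d and Hist1h1e, and was absent from the windows of Hist1h1a and H1fx. Of 32851 RefSeq windows of the same length, 6.25% held AAACACA, 33.8% CCAAT and 12.4% TATAAA. GENCODE starts H1f0 238 bases after RefSeq does, so the bases just before the GENCODE start were not searched, and the missing letters describe this window alone.

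Ends of the messages follow. The stem-loop (capitals; an inverted repeat of 6 bases that starts with GG, around a loop of 4 bases that starts with TTT) of Hist1h1e and Hist1h1c is set beside the last 30 bases of the H1f0 transcript, in which capitals mark the AATAAA polyadenylation signal, all from GENCODE transcripts on GRCm38.
Hist1h1e: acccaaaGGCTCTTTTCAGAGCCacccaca
Hist1h1c: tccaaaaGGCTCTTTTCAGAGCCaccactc
H1f0: aactttaaAATAAAactggaaaggaaaaaa
Hist1h1d had one as well, whereas this search found none in the GENCODE transcripts of Hist1h1a and Hist1h1b. Such a stem-loop occurred in transcripts of 68 of 21877 protein-coding genes (0.311%), and AATAAA in the last 30 bases in 58.9% of them. Hist1h1c also has a transcript that ends with AATAAA, and the sources used do not say which message ends the kit captured. An antisense gene, Gm49544, overlaps the first 163 bases of H1f0 in GENCODE, and no source used states the strand setting of the counting, so reads of the 2 cannot be told apart. Gcat starts 370 bases after the end of H1f0 on the same strand; it stood at 1.76 CPM in the T1D library and 2.95 CPM in the control library.

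The T1D library held 52022458 counts in 15771 barcodes and the control library 57494166 counts in 12880 barcodes. After cells with fewer than 200 genes or more than 20% mitochondrial counts were left out, 15579 T1D and 12803 control cells remained, with medians of 2757 and 3633 counts. Ribosomal RNA made up a median of 39.0% of a T1D cell's counts and 34.9% of a control cell's. The libraries shared 253 cell barcodes. Clusters were named from marker genes, with H1f0 left out of the clustering, which gave 13 named classes. For 12 classes each library held 50 cells or more. Pro- and pre-B-like cells numbered 30 in the T1D library and 1032 in the control library. Names such as monocyte below mean monocyte-like by these markers; the stem or multipotent progenitor class was also led by the platelet-lineage genes Pf4 and Itga2b.

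Over all kept cells, H1f0 had 6412 counts in the T1D library and 1719 in the control library. That is 124 CPM (counts per 1000000 counts of the cells; 95% exact Poisson interval 121 to 127) in T1D cells and 30 CPM (28.6 to 31.5) in control cells, a ratio of 4.14 (exact binomial interval 3.92 to 4.36). Without thinning, 20.6% of T1D cells and 7.66% of control cells held a H1f0 count. After every cell was thinned to 1000 counts, so that the depths match, the shares were 8.63% (Clopper-Pearson interval 8.20 to 9.09) in T1D cells and 2.14% (1.90 to 2.41) in control cells. In T1D cells, 1773 had 1 count, 693 had 2 and 751 had 3 or more. In control cells, 611 had 1 count, 211 had 2 and 159 had 3 or more. The 100 cells with most H1f0 held 13.2% of its counts in the T1D library and 29.6% in the control library; cells with a count held a mean of 1.99 in T1D and 1.75 in control. With T1D class levels weighted by the control library's mix of classes, the T1D level was 132 CPM and the ratio 4.40.

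Calls follow a rule of size: the ratio is 2 or more, the counting interval leaves out 1, and the gene reaches 50 CPM in the library where it is higher. Over all kept cells, 0.972% of 2779 genes met it as higher in T1D and 2.73% as lower; H1f0 was chosen on this contrast, so nothing is read from its place there. A ratio above 1 in each of the 12 classes was found for 148 of these genes (5.33%), H1f0 among them.

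**Figure D1:**
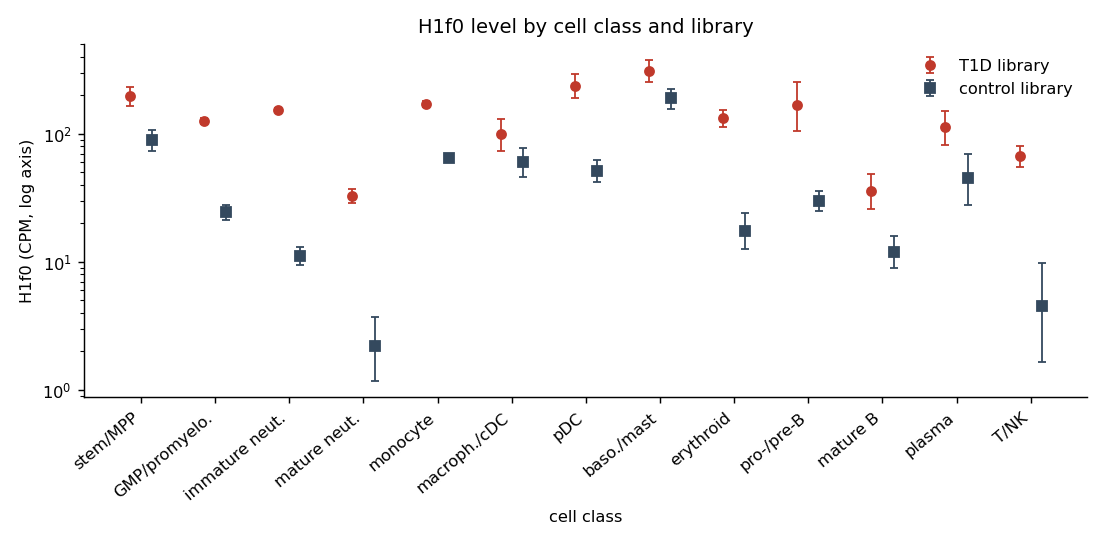
H1f0 in CPM (log axis) in each named cell class, T1D library (circles) and control library (squares); bars are 95% exact Poisson intervals and cover counting error only. The T1D value lies above the control value in every class, with the widest gaps in immature neutrophils, mature neutrophils and T or NK cells.

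H1f0 was higher in the T1D library in all 12 classes compared, with counting intervals above 1 in each, and in 8 of them it met the size rule. Among cells with 2000 to 4000 counts it was higher in all 11 classes that still had enough cells, but met the rule in 6, and the intervals of stem or multipotent progenitors and mature B cells took in 1. After free RNA had been taken off in proportion to the hemoglobin genes, H1f0 was higher in T1D in 9 of the 10 classes that gave a value. Mature neutrophils and erythroid cells gave no value, so their gaps could not be checked in this way. The share of all genes that met the rule as higher in T1D was 0.538% in granulocyte-monocyte progenitors or promyelocytes, 1.69% in immature neutrophils, 1.94% in mature neutrophils, 2.29% in monocytes and 2.78% in stem or multipotent progenitors. It was 1.91% in T or NK cells, 2.03% in mature B cells, 2.12% in erythroid cells, 3.84% in basophils or mast cells, 4.77% in plasmacytoid dendritic cells, 6.31% in macrophages or conventional dendritic cells and 13.4% in plasma cells. Granulocyte-monocyte progenitors or promyelocytes, which make the first neutrophil granules, had 126 CPM in the T1D library and 24.4 CPM in the control library (ratio 5.17, 4.47 to 6.01). Immature neutrophils, which make the secondary granule proteins, had 152 CPM in T1D and 11.1 CPM in control (ratio 13.7, 11.6 to 16.2). These 2536 and 153 counts are 39.6% of all H1f0 counts of the T1D library and 8.90% of those of the control library. Mature neutrophils had 32.6 CPM in T1D and 2.18 CPM in control (ratio 15, 8.61 to 28.5), under the 50 CPM of the rule.

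Other classes with wide gaps were T or NK cells, with 67.0 CPM in T1D and 4.51 CPM (6 counts) in control (ratio 14.9, 6.62 to 41.4), and erythroid cells, with 132 CPM in T1D and 17.5 CPM in control (ratio 7.55, 5.34 to 10.9). Plasmacytoid dendritic cells, the main makers of type I interferon, had 236 CPM in T1D and 51.4 CPM in control (ratio 4.59, 3.42 to 6.14). Mature B cells had 35.8 CPM in T1D and 12.0 CPM in control (ratio 2.98, 1.93 to 4.57). The remaining classes had narrower gaps when each was taken as a whole. Monocytes had 171 CPM in T1D and 64.8 CPM in control (ratio 2.64, 2.40 to 2.89), and plasma cells 112 CPM and 45.0 CPM (ratio 2.50, 1.44 to 4.48). Stem or multipotent progenitors had 196 CPM in T1D and 88.6 CPM in control (ratio 2.21, 1.71 to 2.86). Basophils or mast cells had 312 CPM in T1D and 189 CPM in control (ratio 1.65, 1.26 to 2.15); their log2 ratio was 0.71, and 2.03 without the 1% of cells with most H1f0. Macrophages or conventional dendritic cells had 99.2 CPM in T1D and 60.2 CPM in control (ratio 1.65, 1.11 to 2.44). The log2 ratio of this class, 0.68, was -3.12 after the hemoglobin-based subtraction, 1.49 with a finer clustering (Leiden resolution 2), 1.31 with classes from marker counts of each cell and 1.39 with another start of the clustering. The counting intervals of the immature neutrophil and monocyte ratios do not overlap. Pro- and pre-B cells, with too few T1D cells to be counted among the 12, had 168 CPM (22 counts) in T1D and 30 CPM in control.

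In both libraries basophils or mast cells had the highest H1f0 level and mature neutrophils the lowest. In the T1D library the order ran from basophils or mast cells through plasmacytoid dendritic cells, stem or multipotent progenitors, monocytes, immature neutrophils, erythroid cells, granulocyte-monocyte progenitors, plasma cells, macrophages or conventional dendritic cells, T or NK cells and mature B cells to mature neutrophils. Only monocytes against immature neutrophils, and T or NK cells against mature B cells, were neighbours whose intervals did not overlap. In the control library the order ran from basophils or mast cells through stem or multipotent progenitors, monocytes, macrophages or conventional dendritic cells, plasmacytoid dendritic cells, plasma cells, pro- and pre-B cells, granulocyte-monocyte progenitors, erythroid cells, mature B cells, immature neutrophils and T or NK cells to mature neutrophils. There, basophils or mast cells against stem or multipotent progenitors, and these against monocytes, were the neighbours whose intervals did not overlap. Immature neutrophils thus stood near monocytes in the T1D library and among the lowest classes in the control library.

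**Figure D2:**
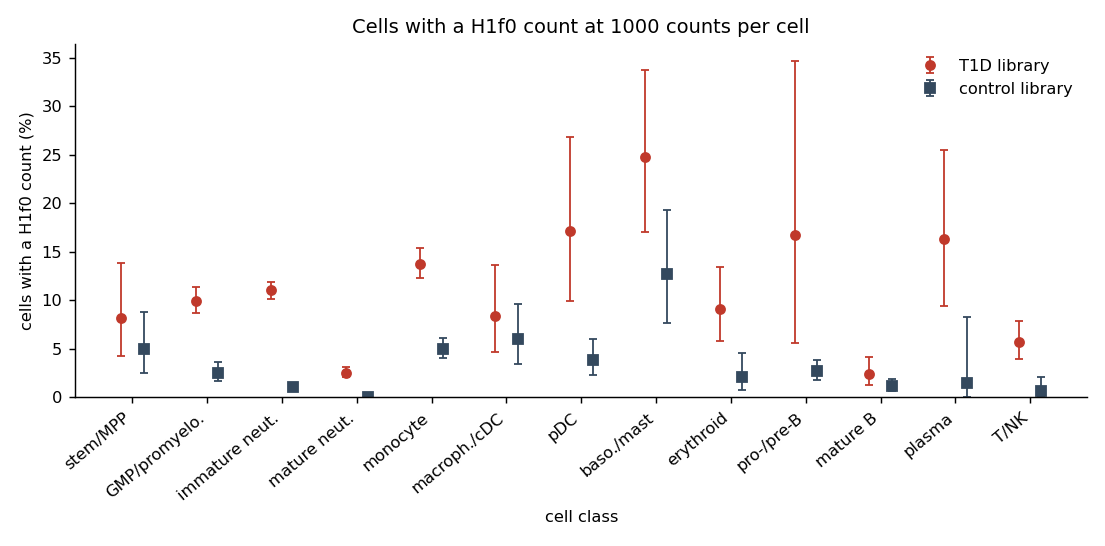
Share of cells (%) with at least 1 H1f0 count after thinning every cell to 1000 counts, by class, T1D library (circles) and control library (squares); bars are 95% Clopper-Pearson intervals. Immature neutrophils stand at 11.1% in T1D and 1.04% in control; small classes such as plasma cells have wide intervals.

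Detection was also compared at matched depth. Among immature neutrophils 11.1% of T1D cells (10.2 to 11.9) and 1.04% of control cells (0.732 to 1.43) held a count, and among granulocyte-monocyte progenitors 9.99% (8.73 to 11.4) and 2.51% (1.66 to 3.63). Among monocytes the shares were 13.8% (12.3 to 15.4) of T1D cells and 5.04% (4.06 to 6.17) of control cells. Plasma cells, with a narrow gap in CPM, had shares of 16.3% (9.42 to 25.5) in T1D and 1.54% (1 of 65 cells, 0.0389 to 8.28) in control; their log2 ratio in CPM was 1.23, and 3.30 with every cell thinned. Mature neutrophils had the lowest share in the control library, 0.0967% of 2068 cells (0.0117 to 0.349), against 2.55% of T1D cells (2.06 to 3.13). In the T1D library mature B cells had the lowest share, 2.43% (1.26 to 4.21). These lowest shares have upper limits of 0.349% in control and 4.21% in T1D cells. The limits come from the same H1f0 values, and some class must stand lowest, so they do not measure background. The T1D shares of immature neutrophils, monocytes and granulocyte-monocyte progenitors lie above the T1D limit. That of mature neutrophils lies below it, and that of T or NK cells, 5.68% (3.96 to 7.84), has an interval that reaches below it. Mature B cells set the limit, so they cannot be read against it. Intervals of the shares overlapped between the libraries for stem or multipotent progenitors, with 8.22% (4.32 to 13.9) in T1D and 5.00% (2.52 to 8.77) in control. They also did for macrophages or conventional dendritic cells, with 8.43% (4.69 to 13.7) in T1D and 6.06% (3.50 to 9.66) in control. The same held for basophils or mast cells, with 24.8% (17.1 to 33.8) in T1D and 12.7% (7.69 to 19.3) in control. Mature B cells overlapped as well, with 2.43% (1.26 to 4.21) in T1D and 1.18% (0.665 to 1.95) in control.

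Signs of free RNA differed between the libraries. Hemoglobin genes, made by red cells, stood in immature neutrophils at 692 CPM in T1D and 269.5 CPM in control, and in mature neutrophils at 2072 CPM and 1180.2 CPM. As a share of the whole library's level they were 40.8% in T1D and 18.5% in control immature neutrophils, and 122% and 81.0% in mature neutrophils. The antibody genes Jchain and Igha stood in immature neutrophils at 4.45% of the library's level in T1D and 2.91% in control. H1f0 itself stood there at 123% of its library level in T1D and 37.1% in control. The part of free RNA, of ribosomal RNA and of depth in the difference was not tested. Among cells with 2000 to 4000 counts, immature neutrophils had 139.8 CPM in T1D and 9.14 CPM in control (ratio 15.3, 11.8 to 20.2). In the same range stem or multipotent progenitors had 172 CPM in T1D and 127.5 CPM in control (ratio 1.35, 0.798 to 2.31), without the call they had among all cells. Mature B cells had 25.9 CPM and 13.7 CPM (ratio 1.90, 0.935 to 3.66), and plasmacytoid dendritic cells 101.5 CPM and 37.9 CPM (ratio 2.68, 1.30 to 5.30). Erythroid cells in this range had 273 CPM in 65 T1D cells and no count in 22 control cells; their log2 ratio, 2.61 among all cells, was 3.23 without the 5% of cells with the highest totals, a setting added after seeing the data, and 1.99 after a subtraction based on the antibody genes. After the hemoglobin-based subtraction, the log2 ratio of T or NK cells was 1.78 against 2.92, and that of plasma cells 2.14 against 1.23.

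**Figure D3:**
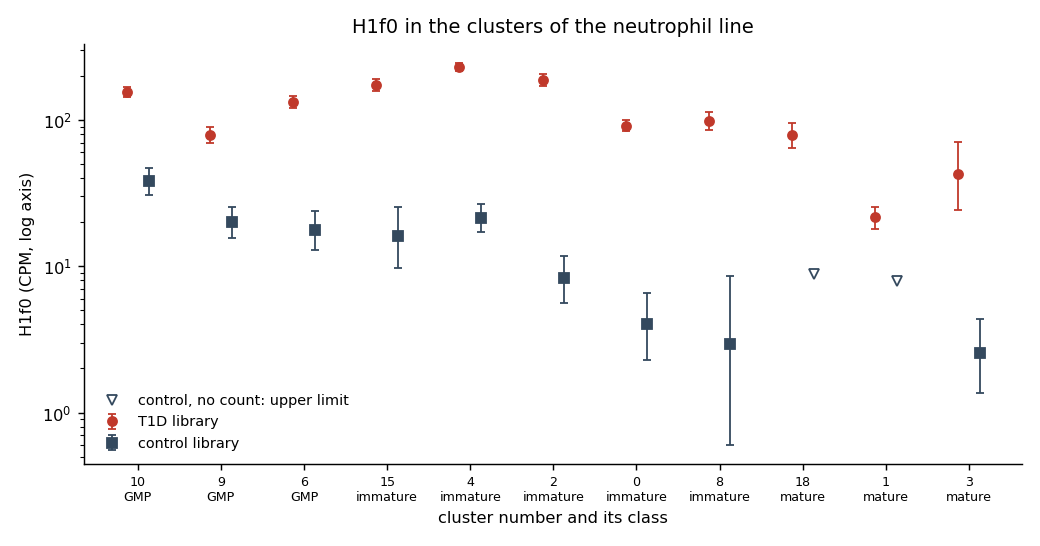
H1f0 in CPM (log axis) in the 11 clusters of the neutrophil line, from granulocyte-monocyte progenitors (GMP) or promyelocytes to immature and mature neutrophils, T1D library (circles) and control library (squares); bars are 95% exact Poisson intervals and open triangles the upper limit where no count was found. The T1D level is highest in cluster 4, where most cells cycle, and the control level in cluster 10.

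The libraries were also compared within single clusters. Of 26 clusters with at least 50 cells in both libraries, H1f0 was higher in T1D in 26, with an interval above 1 in 24, and the ratio ran from 1.28 to 33.6 where control had a count. The lowest ratio was that of mature B cell cluster 16, with 10.2 CPM in T1D and 7.90 CPM in control (1.28, 0.338 to 4.27). In the neutrophil line the progenitor clusters 10, 9 and 6 had 154.7, 79.5 and 133 CPM in T1D and 38.2, 20.1 and 17.7 CPM in control. The cycling immature clusters 15 and 4 had 175 and 229.9 CPM in T1D and 16.2 and 21.5 CPM in control. The mostly non-cycling immature clusters 2, 0 and 8 had 187, 91.5 and 98.4 CPM in T1D and 8.26, 4.02 and 2.93 CPM in control. In the control library both cycling clusters stood above the 3 mostly non-cycling ones in value. The control intervals of cluster 15 (9.74 to 25.3) and cluster 2 (5.57 to 11.8) overlapped. In the T1D library cluster 4 stood highest. Cycling cluster 15 (158.7 to 191.5) and mostly non-cycling cluster 2 (169.9 to 204.8) had overlapping intervals there, with cluster 2 the higher in value.

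Mature neutrophils of the 2 libraries fell mostly into different clusters. Cluster 1 held 84.5% of the T1D cells of the class and cluster 3 held 85.5% of the control cells. Within cluster 3, H1f0 was at 43.0 CPM in T1D and 2.56 CPM in control (ratio 16.8, 7.47 to 38.4). Clusters 1 and 18 had 21.6 and 78.6 CPM in T1D and no count in control cells; set against 3 counts over the control cells of each cluster, H1f0 was at least 3.35-fold and 10.9-fold higher in T1D, and the exact binomial intervals of these ratios begin at 2.68 and 8.71. Monocytes were split as well, with cluster 5 holding 53.2% of T1D monocytes and cluster 12 holding 45.0% of control monocytes. Cluster 5 had 125 CPM in T1D and 26.9 CPM in control, and cluster 12 had 223 CPM and 54.8 CPM. The ratios within monocyte clusters 5, 11, 12 and 14 were 4.63, 2.92, 4.06 and 4.39. Each of them is above the 2.64 of monocytes as a whole, so the class ratio also carries the mix of clusters.

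Because H1.0 is known for building up in resting cells, cycling and non-cycling cells were compared within each library. A cell was called cycling when at least 3 different S or G2 and M phase genes were found in it at 1000 counts, and non-cycling with at most 1. Cycling cells were 34.7% of T1D and 32.9% of control cells, and 7.86% and 5.84% lay between, with 2 genes. With this call H1f0 was higher in cycling than in non-cycling cells in both libraries. In the T1D library it was at 169 CPM in cycling and 81.8 CPM in non-cycling cells (ratio 2.06, 1.96 to 2.18; 32.5% of genes met the size rule as higher in cycling cells). In the control library it was at 40.7 CPM in cycling and 19.9 CPM in non-cycling cells (ratio 2.05, 1.84 to 2.27; 30.4% of genes). The difference depended on the call: with the S phase genes alone the log2 ratio was 0.19 in T1D and 0.06 in control, against 1.00 and 0.88 with both lists. Among cells with 2000 to 4000 counts the ratio was 2.20 (2.02 to 2.39) in T1D and 1.39 (1.07 to 1.80) in control. The T1D to control ratio was 4.15 (3.88 to 4.44) in cycling cells and 4.11 (3.74 to 4.53) in non-cycling cells.

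**Figure D4:**
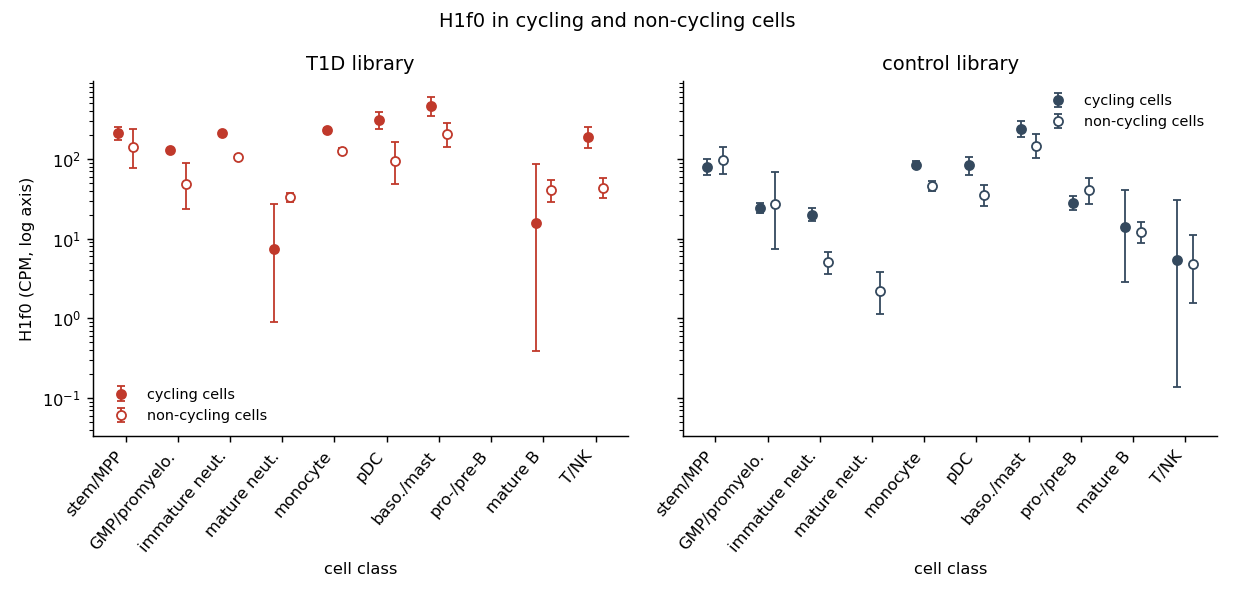
H1f0 in CPM (log axis) in cycling (filled) and non-cycling (open) cells of each class with at least 20 cells of both kinds, T1D library left and control library right; bars are 95% exact Poisson intervals, and groups with no count are not drawn. In immature neutrophils and monocytes the filled points lie above the open ones in both libraries.

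Within classes the ratio was above 1 in 7 of 9 classes of the T1D library, with 6 intervals above 1 and 1, that of mature neutrophils, below 1. It was above 1 in 6 of 10 classes of the control library, with 4 intervals above 1 and 0 below. Immature neutrophils had 210.0 CPM in cycling and 106 CPM in non-cycling T1D cells (ratio 1.97, 1.82 to 2.15; 19.3% of genes met the size rule). In control immature neutrophils it was 20.1 CPM in cycling and 5.06 CPM in non-cycling cells (ratio 3.98, 2.74 to 5.88; 20.8% of genes). At 1000 counts per cell, 16.1% of cycling and 8.20% of non-cycling T1D immature neutrophils held a count, and 2.26% and 0.466% of control ones. Monocytes had 232 CPM in cycling and 128 CPM in non-cycling T1D cells (ratio 1.81; 15.3% of genes met the size rule), and 85.1 CPM and 45.9 CPM in control cells (ratio 1.86; 14.6% of genes). Among monocytes of 2000 to 4000 counts, the T1D values were 239 CPM in cycling and 133 CPM in non-cycling cells (ratio 1.80, 1.47 to 2.20), whereas the control values were 52.9 CPM (12 counts) and 67.9 CPM (ratio 0.779, 0.386 to 1.44).

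The largest cycling ratios within a class were those of T or NK cells in the T1D library and of control immature neutrophils. T1D T or NK cells had 191 CPM in cycling and 43.8 CPM in non-cycling cells (ratio 4.35, 2.85 to 6.62). Their 45 cycling counts came from 15 of 64 cells. Control T or NK cells had 5.45 CPM (1 count) in cycling and 4.77 CPM in non-cycling cells (ratio 1.14, 0.0241 to 10.2). Plasmacytoid dendritic cells had 309.9 CPM in cycling and 93.4 CPM in non-cycling T1D cells (ratio 3.32), and 83.3 CPM and 35.2 CPM in control cells (ratio 2.37). Basophils or mast cells had 461 CPM in cycling and 205 CPM in non-cycling T1D cells (ratio 2.24), and 242 CPM and 148 CPM in control cells (ratio 1.64). The control pro- and pre-B cells went the other way in value, with 28.4 CPM in cycling and 40.6 CPM in non-cycling cells (ratio 0.699, interval 0.458 to 1.10), and in the range of 2000 to 4000 counts with 19.4 CPM and 44.5 CPM (ratio 0.436, 0.224 to 0.831). T1D mature neutrophils had 7.45 CPM (2 counts) in the few cells called cycling and 33.2 CPM in non-cycling cells (ratio 0.224, 0.027 to 0.82).

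Over all cells of each library, those with more G2 and M phase than S phase genes had the higher H1f0 levels. The split compares numbers of genes found, and the G2 and M phase list is longer, with 43 genes against 26. It put 26.0% of T1D cells on the G2 and M phase side and 6.75% on the S phase side. Over all T1D cells, 189 CPM was found in cells with more G2 and M phase genes and 113 CPM in cells with more S phase genes. In control cells the values were 46.4 CPM and 21.8 CPM. Monocytes had 263 CPM and 147 CPM in T1D, and 96.0 CPM and 35.1 CPM in control. Immature neutrophils had 214 CPM and 123 CPM in T1D, and 19.4 CPM and 11.4 CPM (2 counts) in control. Erythroid cells did not share this order in the T1D library, with 129.6 CPM in cells with more G2 and M phase genes and 138 CPM in those with more S phase genes. Some groups of few cells did not share it either, such as T1D mature neutrophils with 0 CPM and 44.1 CPM (2 counts).

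None of the other linker histones had a ratio near that of H1f0. Hist1h1a had 46.1 CPM in T1D and 103 CPM in control over all kept cells (ratio 0.445, 0.425 to 0.467), and was the other family member to meet the size rule, as lower. Hist1h1b had 286 CPM in T1D and 447.5 CPM in control (ratio 0.639), Hist1h1d 71.1 CPM and 138 CPM (ratio 0.514), and Hist1h1e 326 CPM and 419 CPM (ratio 0.778). Hist1h1c, a form also made outside S phase, had 247 CPM in T1D and 209.8 CPM in control (ratio 1.18). These all-cell ratios also carry the mix of classes. Pro- and pre-B cells held 17995 of the 77310 linker histone counts of the control library and 199 of 56941 in the T1D library. Within immature neutrophils the ratios were 1.09 for Hist1h1a, 0.989 for Hist1h1b, 0.7 for Hist1h1d, 0.951 for Hist1h1e and 1.36 for Hist1h1c. For Hist1h1a it was 0.697 in granulocyte-monocyte progenitors, 0.58 in monocytes and 0.655 in erythroid cells. The part of the mix was not tested. H1fx stood at 1.76 CPM in T1D and 1.10 CPM in control, and the testis form Hist1h1t at 2 and 5 counts. H1fnt, H1foo and Hils1 were not among the 8 linker histone genes found, so they were not analysed here. Coding sequences of the Hist1h1 genes are alike, so reads could be split between them.

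**Figure D5:**
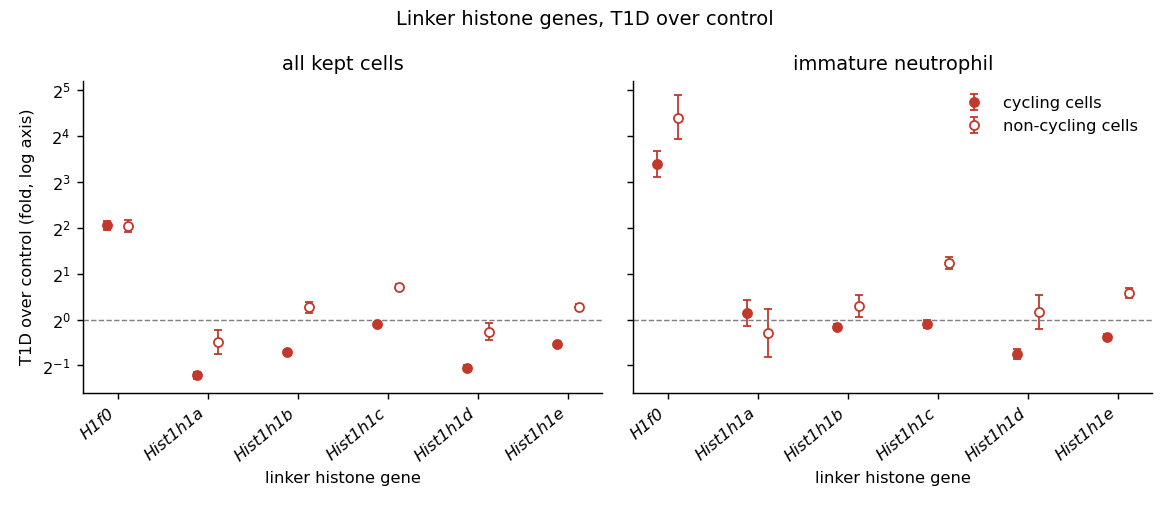
T1D over control ratio (log axis, dashed line at 1) of 6 linker histone genes in cycling (filled) and non-cycling (open) cells, over all kept cells (left) and in immature neutrophils (right); bars are 95% exact binomial intervals of counting error. H1f0 stands above the others in both panels. Hist1h1b, Hist1h1c and Hist1h1e lie above 1 in non-cycling cells of both, with Hist1h1c the highest of these.

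The T1D to control ratios of these genes differed with the cell cycle state. In cycling cells of all classes together, Hist1h1a to Hist1h1e had T1D to control ratios from 0.430 (Hist1h1a) to 0.929 (Hist1h1c). Within cycling immature neutrophils they ran from 0.595 (Hist1h1d) to 1.1 (Hist1h1a). In non-cycling cells Hist1h1c had 229 CPM in T1D and 139.7 CPM in control (ratio 1.64, 1.57 to 1.71). Hist1h1b (1.20, 1.10 to 1.30) and Hist1h1e (1.21, 1.15 to 1.27) also stood above 1 there. Hist1h1a (0.718) and Hist1h1d (0.832) stood below 1. Of the cycling genes, Mki67 (1.29) and Top2a (1.38) were higher in non-cycling T1D cells and Mcm6 (0.852) lower. Cells called non-cycling thus did not hold equal levels of cycling genes in the 2 libraries. In non-cycling immature neutrophils Hist1h1c had 209 CPM in T1D and 88.9 CPM in control (ratio 2.35, 2.15 to 2.57; 2.26% of genes met the size rule as higher). H1f0 in the same cells had 106 CPM in T1D and 5.06 CPM in control (ratio 21.0, 15.3 to 29.6). Cycling over non-cycling ratios were 11.5 in T1D and 22.4 in control for Hist1h1b, 3.35 and 5.82 for Hist1h1e, and 1.16 and 2.05 for Hist1h1c, with 2.06 and 2.05 for H1f0. Mki67, which marks dividing cells, had ratios of 21.8 and 34.7.

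H1f0 made up 11.3% (11 to 11.5) of all linker histone counts in the T1D library and 2.22% (2.12 to 2.33) in the control library. In immature neutrophils the share was 12.8% in T1D and 1.08% in control, and in erythroid cells 5.60% and 0.551%. In 2 classes the shares overlapped: macrophages or conventional dendritic cells with 21.1% (16.0 to 27.0) in T1D and 21.5% (16.9 to 26.7) in control, and plasma cells with 21.2% (15.8 to 27.3) and 23.5% (15 to 34.0). All linker histones together stood at 469 CPM in T1D and 279.8 CPM in control macrophages or conventional dendritic cells, and at 532 CPM and 191 CPM in plasma cells.

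Genes around linker histones were described from lists, chosen with earlier results known. Over all kept cells the median log2 ratio of 8991 genes of at least 5 CPM was -0.12, and 33.2% were above 0. Of 15 replication-dependent core histone genes measured, 2 were above 0 and 13 below, with a median of -0.42. Of 14 chaperones and competitors of linker histones, such as Nasp and the Hmgn proteins, 0 were above 0 and 14 below, with a median of -0.24; none met the size rule. Of 8 replacement core histone variants 1 was above 0; H3f3a, which encodes the H3.3 variant, met the rule with 106 CPM in T1D and 223 CPM in control (ratio 0.476). Of 13 genes of heterochromatin and the nuclear envelope 3 were above 0, and of 14 histone deacetylases and acetyltransferases 2; none of either list met the rule. Of 15 genes of cell cycle exit 6 were above 0, and Klf4, a transcription factor that restrains division, met the rule with 67.9 CPM in T1D and 166 CPM in control (ratio 0.408). Of 43 G2 and M phase genes 2 were above 0, with TMM factors 14, and of 24 S phase genes 4 and with TMM factors 10. TMM factors likewise moved the number above 0 to 3 for the core histones, 2 for the chaperones and competitors, 3 for the replacement variants, 6 for heterochromatin and the nuclear envelope, 6 for the deacetylases and acetyltransferases and 9 for cell cycle exit. These factors shift log2 ratios over all kept cells upward by 0.13, for all genes alike. The share of all genes above 0 with TMM factors is not given here. The counts with TMM factors therefore cannot be set against the 33.2%.

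In immature neutrophils, where the H1f0 gap was wide, the median log2 ratio of 7350 genes was 0.04, with 55.7% above 0. The replication-dependent core histones had a median of -0.24 with 2 of 9 genes above 0. The median of the S phase list was 0.14 with 16 of 22 genes above 0, and that of the G2 and M phase list -0.02 with 21 of 43. The cell cycle exit list had a median of -0.16 with 4 of 13 genes above 0, and the heterochromatin and nuclear envelope list 0.14 with 8 of 11. Chaperones and competitors of linker histones, all below 0 over all kept cells, had a median of 0.03 here with 6 of 12 above 0. In mature neutrophils their median was 0.16 with 7 of 10 above 0, where 6660 genes had a median of 0.05 with 55.2% above 0. The replacement variants had a median of 0.06 in immature neutrophils with 5 of 8 above 0, and the deacetylases and acetyltransferases 0.04 with 7 of 11. Among the members of these chromatin and cell cycle lists, H1f0 was the one that met the size rule in immature neutrophils. In other neutrophil classes H2afy, which encodes macroH2A1, met it in mature neutrophils with 124 CPM in T1D and 55.5 CPM in control (ratio 2.24). Hist1h2bc, a core histone H2B gene, met it in granulocyte-monocyte progenitors with 61.6 CPM in T1D and 24.7 CPM in control (ratio 2.49).

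The 8 genes most like H1f0 over the 25 points of class and library were Tm9sf2, Tmed2, Tusc1, Cmas, Glb1, Pigt, Tap2 and Il3ra, among 5897 genes compared. Their Pearson correlations of log2(CPM + 5) ran from 0.683 (Il3ra) to 0.749 (Tm9sf2). The points share 2 libraries and differ in depth, so these values only describe the pattern. None of the 8 matched the H1f0 gap: Tap2, a peptide transporter subunit, had the largest ratio, with 45.4 CPM in T1D and 25.7 CPM in control (1.77), and Glb1, the lysosomal beta-galactosidase, had 16.3 CPM and 16.1 CPM (1.01).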

How the data were processed

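Bone marrow cells of 1 T1D and 1 control mouse library were counted per gene and barcode. The deposited values are whole-number counts, not normalized; bcl2fastq 2.19, featureCounts and the build mm9 are named per the submitters' processing notes. Aligner, annotation, cell calling and the treatment of molecular identifiers: not given in the sources used here. Coordinates and sequences come from RefSeq and GENCODE on GRCm38 and were not joined to the counts by position. Gene, lists and markers were chosen with earlier results of these data known. The genes named are H1f0, the linker histones found, members of other lists that met the size rule over all kept cells or in neutrophil classes, Mki67, Top2a and Mcm6, and the 8 genes most like H1f0.

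Kept cells had 200 genes or more and no more than 20% mitochondrial counts. Log values scaled to 10000 counts of 2722 variable genes, without H1f0, gave 30 principal components; a graph of 15 neighbours was split into 32 clusters by the Leiden method (python-igraph 0.11.9, best of 10 starts), named from 171 marker genes by at least 3 of them. Clusters 13 and 28 stayed unnamed because a second lineage had nearly as large a share of its markers. Cluster 13 (684 T1D and 57 control cells) was led by stromal genes such as Col1a1, Col1a2 and Cxcl12, with erythroid markers second. No doublet caller was run, so doublets stay among the cells. The alternative classes taken from marker counts of each cell alone use a cut of 2 times the library mean, set after a first version had been seen. CPM is per 1000000 of all counts of the summed cells; log2 ratios add 5 CPM. Intervals are at 95%. Scaling alternatives used edgeR 4.0.16 (TMM) and DESeq2 1.42.0 (size factors); neither was used for tests, since 1 library per group allows none.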

Additional observations from a re-analysis of the deposited data

How the results depend on the processing

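Of 675 values recomputed under other settings, 567 stayed within the counting interval (for counts of genes or classes, within 1.5 times), 106 moved outside it and 2 reversed; of 284 T1D over control values per class, 283 were above 0. Over all kept cells the log2 ratio of H1f0 was 1.88; it was 2.02 with TMM factors, 1.99 with DESeq2 size factors, 2.01 without ribosomal RNA in the totals, 2.28 in cells of 2000 to 4000 counts, 2.12 without the 1% of cells with most H1f0, 2.01 with a pseudocount of 1 CPM and 1.97 with the control mix of classes, an alternative chosen after seeing the data. The log2 ratio of the shares of cells with a count was 2.01, and 1.43 without thinning. In T1D immature neutrophils the cycling over non-cycling log2 ratio was 0.95, against 0.25 with the S phase list alone and 0.63 with classes from marker counts of each cell. The 2 reversals were macrophages or conventional dendritic cells at -3.12 (0.68 as reported) when free RNA was subtracted at the hemoglobin level, and control monocytes, cycling over non-cycling, at -0.33 (0.83 as reported) in cells of 2000 to 4000 counts. The cause was not tested. TMM and DESeq2 factors shifted the log2 ratio over all kept cells by 0.13 and 0.11, and within classes by -0.19 (plasma cells) to 0.09 (basophils or mast cells). The number of classes that met the size rule ran from 6 to 10. With 1 library per group no replicate can be left out. No paired analysis was possible because each group has 1 library and no result comes from a test.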
